A study of Gallus gallus with 20 samples.

Results

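The comparison described here set the livers of chickens fed an L-methionine-deficient diet against the livers of chickens fed a control diet that contained L-methionine. Its members were chosen by the tissue and diet in the sample labels, which gave 10 of the 20 RNA sequencing libraries of the study, 5 from control birds and 5 from deficient birds. All birds were male Ross 708 broilers, a fast-growing meat strain, and were sampled at post-hatch day 35. The diets were given from week 3 to week 5 of age, to 5 control and 5 deficient birds per the labels, so the 5 libraries of a group were taken as 5 birds. The other 10 libraries came from the breast muscle, pectoralis major, under the same diets. The p-values measure a difference against the spread between these libraries within a diet.

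Methionine is an essential amino acid and the first to limit growth in poultry diets based on maize and soybean. In the liver it is turned into S-adenosylmethionine, the methyl donor of most methylation reactions, and the homocysteine left over is either methylated back to methionine or passed on to cysteine through transsulfuration. When amino acids are short, cells are known to slow translation through the kinase GCN2 and to raise genes under the transcription factor ATF4. The liver also sets the use of fuels between meals under insulin, glucagon and glucocorticoid.

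The liver label was borne out by hepatocyte markers, whose median lay between 368 and 887 FPKM in the 10 libraries. FPKM counts sequenced fragments relative to transcript length and library total. For single genes it was scaled so that the libraries of the tissue had the same typical ratio to each other. Marker medians and sums in FPKM, here and below, are as deposited, without that scaling. ALB, the albumin gene, was marked in the files as too deep to estimate in all 10 libraries and was left out. Pancreatic enzyme genes summed to at most 0.703 FPKM, and 3 of them (CLPS, CELA1 and PNLIP) were at 0 throughout. Control 1 stood apart in muscle genes, with 13 myocyte markers summing to 620.1 FPKM against 26.1 to 37.5 in the other 9 libraries. Mitochondrial genes took 63.1% of the FPKM sum in control 4 and 36.1% in deficient 1, against 14.3% to 22.1% in the rest. Without the largest mitochondrial model of each library, a model of 71 nt in control 4 and of 76 nt in deficient 1, the shares were 18.8% and 19.2% against 11.6% to 17%. Coverage per unit of FPKM, which scales with depth, lay between 1.98 and 3.47, and 9798 to 10125 genes reached 1 FPKM. Since whole tissue was sequenced, fewer cells of a type and less RNA per cell cannot be told apart.

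No gene passed the test in liver. Of 10185 genes tested, limma called 0 (0%) at an adjusted p under 0.05, and the smallest adjusted p was 0.0833, for MIB2. At an unadjusted p under 0.05 there were 849 genes (8.34%), 428 higher (4.2%) and 421 lower (4.13%) on the deficient diet. In 190 genes (1.87%) all 5 deficient libraries lay beyond all 5 controls, 96 of them above (0.943%) and 94 below (0.923%). Among genes with an unadjusted p under 0.05 and at least 2-fold apart, 42 were lower (0.412%) and 14 were higher (0.137%), and 5 on each side were models shorter than 200 nt. Without scaling, 62.3% of the genes with an unadjusted p under 0.05 were higher, against 50.4% with it. Leaving out control 1, the library with high myocyte markers, gave 0 calls and 806 genes with an unadjusted p under 0.05 (7.92%), 647 of them shared with the full set. Leaving out control 3 gave 11 calls (0.108%), 9 of them lower. With no gene called, the genes below are given as values, and "higher" and "lower" state the side of a mean and not a passed test.

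**Figure D1:**
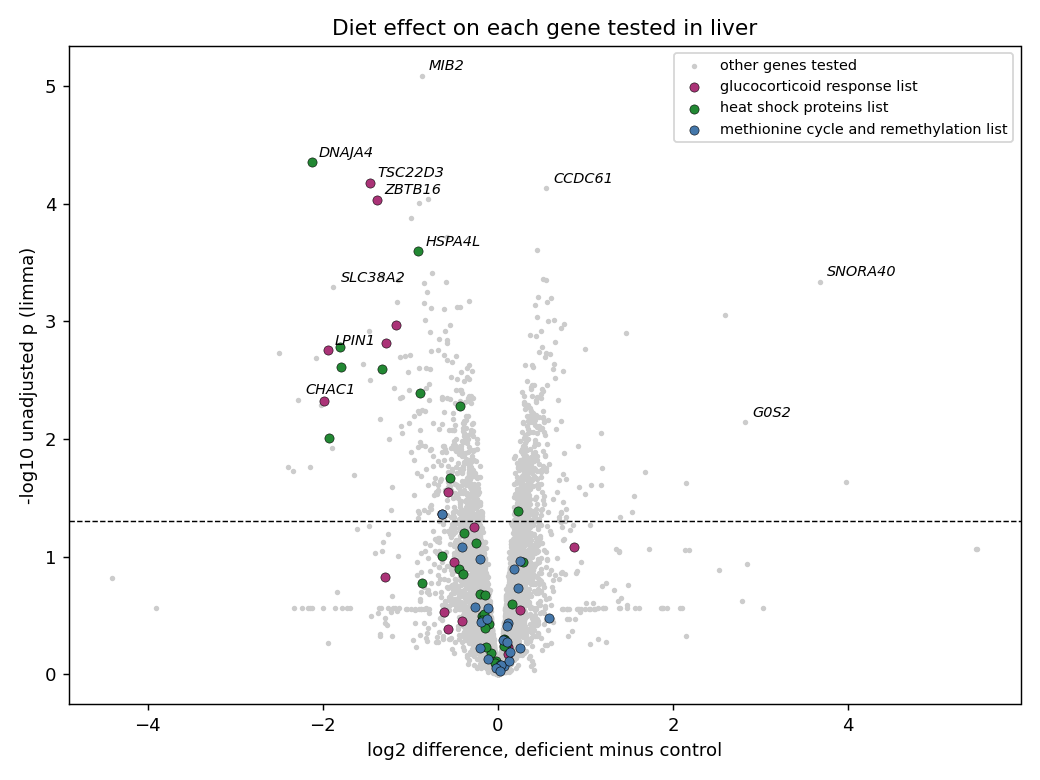
Each point is 1 of 10185 genes tested in liver, where the x axis gives the log2 difference in scaled FPKM, deficient minus control, and the y axis the -log10 unadjusted p from limma, with a dashed line at 0.05. Members of the glucocorticoid response and heat shock lists lie mostly to the left, while those of the methionine cycle list gather around 0.

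The gene with the smallest p was MIB2 (ENSGALG00000001473, galGal4 chromosome 21, 2046501 to 2069501), a ubiquitin ligase known for acting on Notch ligands. Its scaled FPKM was 28.3, 35.2, 28, 29.8 and 35.9 in controls 1 to 5 and 16.1, 16.6, 16.4, 19.8 and 14.9 in deficient libraries 1 to 5. Every deficient library lay below every control, and the lowest control was well clear of the highest deficient library. It differed by -0.87 (95% interval -1.11 to -0.63, limma adjusted p = 0.0833). Without control 3 it was called (limma adjusted p = 0.0382), and without control 1 it was -0.90 (adjusted p = 0.115). Over removals of each library in turn, its limma adjusted p reached 0.371. It was also called when only genes with a mean of at least 5 FPKM were tested (adjusted p = 0.0409). With both control 4 and deficient 1 left out, its limma adjusted p was 0.555, the highest of all settings.

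Next to MIB2 among the lower genes stood several genes with different known roles. SPATA13, a guanine nucleotide exchange factor for small GTPases, was at 14.7, 24.2, 16, 17.2 and 18.5 in controls 1 to 5 and 7.95, 10.3, 9.33, 11.2 and 7.18 in deficient libraries 1 to 5. MARVELD3 (ENSGALG00000000882), a tight junction membrane protein, was at 71.7, 114, 67.5, 112 and 85.2 in controls 1 to 5 and 43.5, 50.7, 44.1, 46.9 and 35.5 in deficient libraries 1 to 5. In both genes the diets did not overlap, with control 2 the highest control in each. SPATA13 differed by -0.90 (95% interval -1.23 to -0.57) and MARVELD3 by -0.99 (95% interval -1.36 to -0.61), with limma adjusted p = 0.142 and 0.17. The chloride channel gene ANO1 was at 5.83, 1.88, 5.4, 4.28 and 1.76 in controls 1 to 5 and 0.528, 1.03, 0.835, 0.95 and 0.685 in deficient libraries 1 to 5. Here controls 2 and 5 lay closest above the highest deficient library, while controls 1, 3 and 4 lay far above it. PCGF3, a Polycomb subunit (-0.58), and the epidermal growth factor family ligand EREG (-2.02) also showed no overlap of the diets. EREG ran from 2.3 to 34.1 scaled FPKM in controls and from 0.936 to 2.23 in deficient libraries. HMGA2, a chromatin architectural protein, ran from 5.88 to 16.5 in controls, is represented by a model of 138 nt, was listed at 0 in deficient 2, 4 and 5, and lay at 4.92 and 4.97 in deficient 1 and 3.

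The genes that were higher with the smallest p differed by less. CCDC61 (ENSGALG00000006714), a centriole protein, was at 4.92, 4.72, 5.45, 4.73 and 4.26 in controls 1 to 5 and 6.76, 7.9, 8.28, 6.62 and 8.05 in deficient libraries 1 to 5. The diets did not overlap, and both groups were tight. On the log2 scale it differed by 0.55 (95% interval 0.35 to 0.74, limma adjusted p = 0.142). Other coding genes named by the same rule were YPEL2 (0.55), the ribosome rescue factor GTPBP2 (0.46), the transcription factor ARID3A (0.60), FITM2 of lipid droplet formation (0.42), the fractalkine receptor CX3CR1 (0.64) and the arrestin ARRDC4 (0.57). All of them had adjusted p between 0.25 and 0.269 in limma and no overlap between the diets. A pair of small nucleolar RNA genes completed the list. SNORA40, a model of 127 nt, was listed at 0 in controls 1, 3, 4 and 5 and at 16.2 in control 2, against 21.7, 11.7, 31.4, 21.5 and 26.9 in deficient libraries 1 to 5. SNORA25, a model of 132 nt, was listed at 0 in all controls and in deficient 3, and at 7.87, 8.5, 7.79 and 9.75 in the other deficient libraries. An estimate of 0 for a short model in these files can be a failed estimate, so their levels are given without a liver fold.

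The glucocorticoid response list, mostly genes that the hormone induces in mammals, leaned towards lower values. Of 18 tested members of the glucocorticoid response list, 0 were called, 8 were lower at an unadjusted p under 0.05 and 0 were higher, against 4.13% and 4.2% of all genes. In 5 of the 18, TSC22D3, ZBTB16, KLF15, PDK4 and IGFBP1, all deficient libraries lay below all controls, against 0.923% of all genes. The list's median log2 difference was -0.59 and that of all genes tested 0.0054. Without deficient 2 the list median was -0.92.

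TSC22D3 (ENSGALG00000027069, galGal4 chromosome 4, 1770827 to 1772689) encodes GILZ, a transcriptional regulator through which glucocorticoid acts. It was at 209.9, 261, 153, 194 and 94.4 scaled FPKM in controls 1 to 5 and 67.8, 62.2, 57.6, 60.8 and 63.9 in deficient libraries 1 to 5. The deficient libraries lay within a narrow range, and the controls, with control 5 the lowest, were all above it. Its mean log2 difference was -1.45 (95% interval -1.97 to -0.94, limma adjusted p = 0.142). Leaving out control 5 gave a call (adjusted p = 0.00766), while leaving out control 1 did not (adjusted p = 0.288). Over removals of each library in turn, its limma adjusted p reached 0.441.

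ZBTB16 (ENSGALG00000007011, galGal4 chromosome 24, 4460401 to 4534848), the transcription factor PLZF, was at 3.84, 7.84, 3.98, 9.72 and 9.31 scaled FPKM in controls 1 to 5 and 1.81, 2, 1.93, 1.82 and 1.79 in deficient libraries 1 to 5. The deficient libraries again clustered tightly, and controls 1 and 3 were the lowest controls. The log2 difference was -1.38 (95% interval -1.89 to -0.88, limma adjusted p = 0.142). Over removals of each library in turn, the limma adjusted p ran from 0.0468, without control 3, to 0.441. KLF15, a transcription factor of amino acid breakdown and gluconeogenesis, was at 23.1, 43.7, 17.9, 29.2 and 27.2 in controls 1 to 5 and 8.12, 14.7, 7.67, 16.9 and 12.9 in deficient libraries 1 to 5. Control 3 lay just above deficient 4, and the groups did not overlap. It differed by -1.16 (95% interval -1.74 to -0.58, limma adjusted p = 0.269).

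**Figure D2:**
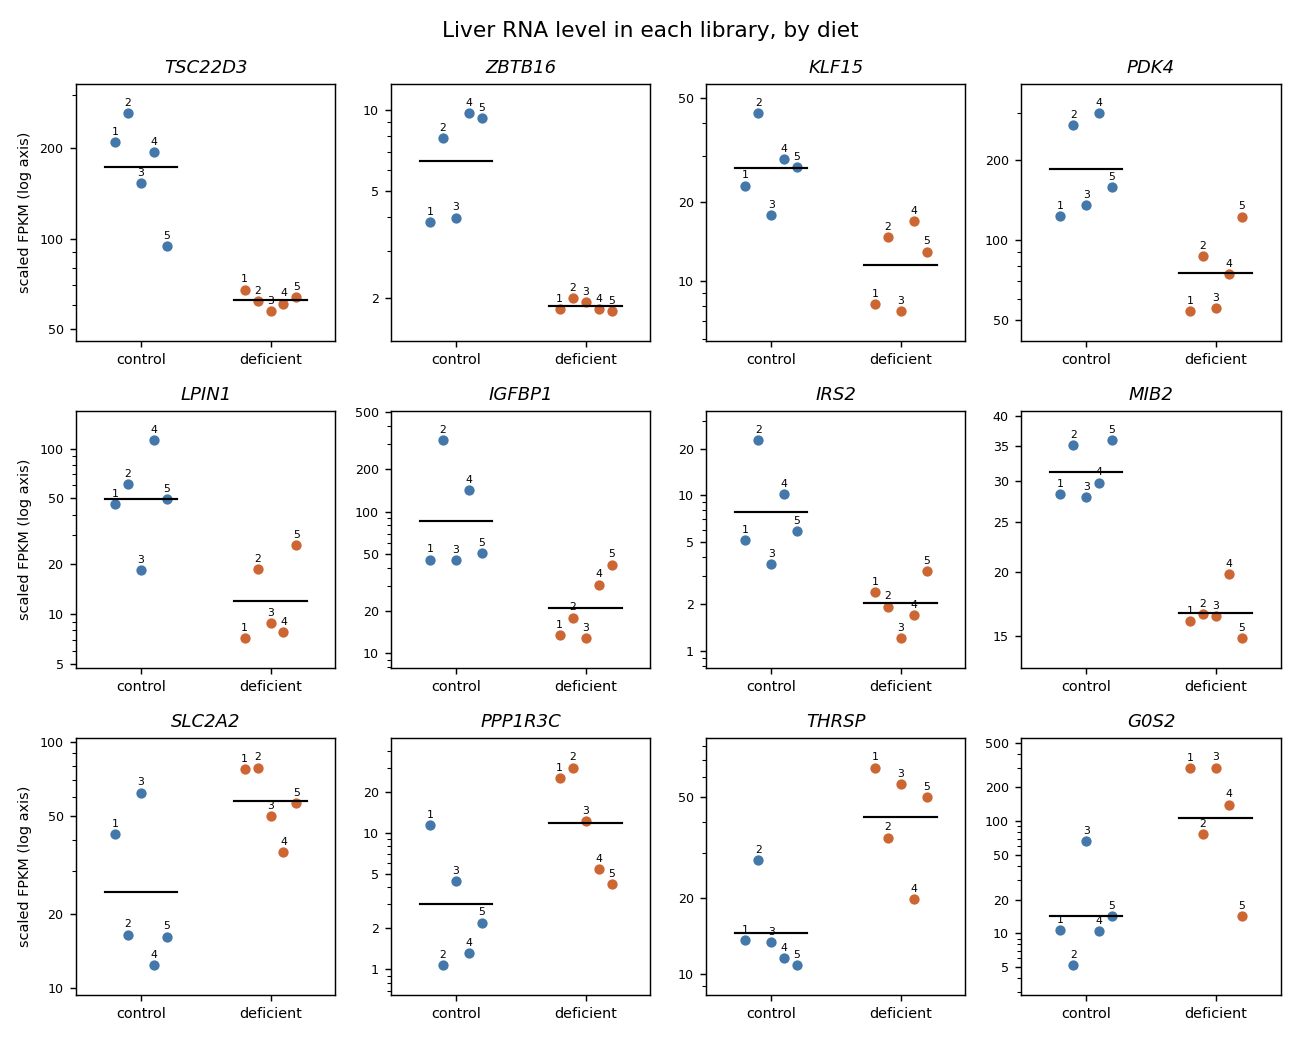
Scaled FPKM on a log axis in each liver library for 12 genes, controls in blue and deficient libraries in orange, with the replicate number beside each point and a line at the mean of log2(scaled FPKM + 1). The diets do not overlap in TSC22D3, ZBTB16, KLF15, PDK4, IGFBP1, IRS2 and MIB2, while in LPIN1 and the 4 genes of the bottom row they overlap.

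Genes that act in the switch between stored and circulating fuel lay on both sides, with none past the test. PDK4 (ENSGALG00000009700, galGal4 chromosome 2, 24033200 to 24043554), a kinase that shuts down pyruvate dehydrogenase and so spares glucose, was at 123, 270.2, 135, 299 and 158 scaled FPKM in controls 1 to 5 and 54.2, 86.8, 55.6, 74.6 and 122 in deficient libraries 1 to 5. Control 1 lay just above deficient 5, and controls 2 and 4 were the highest. On the log2 scale it differed by -1.28 (95% interval -1.95 to -0.61, limma adjusted p = 0.29). LPIN1 (ENSGALG00000016456, galGal4 chromosome 3, 96971362 to 97044067), a phosphatidate phosphatase that is also a nuclear coactivator, was at 46.2, 60.8, 18.4, 112 and 49.4 in controls 1 to 5 and 7.2, 18.8, 8.86, 7.78 and 26.2 in deficient libraries 1 to 5. Control 3 lay within the deficient range, and control 4 was far above the others. Its mean log2 difference was -1.94 (95% interval -2.98 to -0.91, limma adjusted p = 0.293).

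IGFBP1 (ENSGALG00000012437, galGal4 chromosome 2, 54998847 to 55006844), a secreted binding protein of insulin-like growth factors that insulin lowers, was at 45.8, 317, 45.7, 141 and 50.7 scaled FPKM in controls 1 to 5 and 13.5, 17.9, 12.8, 30.5 and 42.3 in deficient libraries 1 to 5. Controls 2 and 4 were far above the other controls, and deficient 5 came close to the lowest control. IRS2, the insulin receptor substrate of the liver, was at 5.17, 22.6, 3.62, 10.2 and 5.85 in controls 1 to 5 and 2.38, 1.92, 1.2, 1.69 and 3.26 in deficient libraries 1 to 5. Its groups did not overlap, and control 2 stood far above the rest. The log2 differences were -1.99 (95% interval -3.23 to -0.75) for IGFBP1 and -1.54 (95% interval -2.40 to -0.68) for IRS2, with limma adjusted p = 0.353 and 0.301.

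Some further genes known from the response to fasting were also lower on average, with none past the test. They are described singly and not as a list. Of 38 tested members of the glycolysis and gluconeogenesis list, 2 were higher and 2 lower at an unadjusted p under 0.05 (median -0.041). Of 34 in the fatty acid oxidation and ketone synthesis list, 1 was higher and 2 lower (median 0.079). Among all genes tested the shares were 4.2% higher and 4.13% lower. CREM, a transcription factor of cyclic AMP signalling, was at 153, 289.6, 96.1, 395 and 259 scaled FPKM in controls 1 to 5 and 64.2, 68.8, 79.7, 72.3 and 102 in deficient libraries 1 to 5. Control 3 crossed below deficient 5, and the other 4 controls lay above every deficient library. CREM differed by -1.47 and the salt-inducible kinase SIK1 by -1.89 (limma adjusted p = 0.273 and 0.432). CREM was called without control 3 (adjusted p = 0.0475), and over removals of each library in turn its limma adjusted p reached 0.646. NFIL3, a repressor tied to the circadian clock, was at 24, 28.3, 14.2, 28.7 and 18.1 in controls 1 to 5 and 12, 11.8, 11.2, 13.3 and 10.9 in deficient libraries 1 to 5. Its deficient libraries all lay below its lowest control, which was control 3. It differed by -0.84 (limma adjusted p = 0.25). The coactivator PPARGC1A differed by -0.80, although deficient 5 held its highest value of all 10 libraries, 12 scaled FPKM. PCK1, the rate-limiting enzyme of gluconeogenesis from pyruvate, ranged from 75.4 to 1271 in controls and from 36.8 to 612 in deficient libraries, with a log2 difference of -1.29 (95% interval -3.11 to 0.54). The phosphatase DUSP1 and the tyrosine aminotransferase TAT differed by -0.57 and -0.64, with overlapping groups. Without control 1, the library with high myocyte markers, the log2 differences were -1.43 for PDK4, -1.97 for LPIN1, -2.22 for IGFBP1 and -1.67 for IRS2 (limma adjusted p between 0.368 and 0.389).

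Other genes of fuel handling, described singly and not as a list, had higher means on the deficient diet. G0S2 (ENSGALG00000023933, galGal4 chromosome 26, 3082074 to 3082959), an inhibitor of the triglyceride lipase ATGL, was at 10.7, 5.21, 66.5, 10.4 and 14.3 scaled FPKM in controls 1 to 5 and 296, 77.3, 301, 141 and 14.3 in deficient libraries 1 to 5. Deficient 1, 3 and 4 exceeded all controls, deficient 2 narrowly did, and deficient 5 sat among the controls. The log2 difference was 2.82 (95% interval 0.94 to 4.70, limma adjusted p = 0.385), and without deficient 5 it was 3.53. THRSP (ENSGALG00000027901), known as Spot 14 and induced with fat synthesis, was at 13.7, 28.2, 13.3, 11.6 and 10.8 in controls 1 to 5 and 65.5, 34.6, 56.5, 19.7 and 50.2 in deficient libraries 1 to 5. Only control 2 and deficient 4 crossed. The symbol is carried by 2 gene models, and reads shared between them could have been split. The values given are those of 1 model, which differed by 1.46 (95% interval 0.72 to 2.21, limma adjusted p = 0.273). The other model did not have an unadjusted p under 0.05 in limma.

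The glucose transporter GLUT2, encoded by SLC2A2, was at 42.2, 16.5, 62.3, 12.4 and 16.2 scaled FPKM in controls 1 to 5 and 77.5, 78.7, 50.2, 35.8 and 56.5 in deficient libraries 1 to 5. Controls 1 and 3 reached into the deficient range, and controls 2, 4 and 5 lay well below it. PPP1R3C, which targets a phosphatase to glycogen, was at 11.4, 1.07, 4.42, 1.32 and 2.2 in controls 1 to 5 and 25, 29.99, 12.1, 5.4 and 4.22 in deficient libraries 1 to 5. Controls 1 and 3 again lay within the deficient range. SLC2A2 differed by 1.19, PPP1R3C by 1.68 and GPAM, the mitochondrial enzyme that opens triglyceride synthesis, by 0.78, with limma adjusted p of 0.459, 0.467 and 0.477. The enzymes of fatty acid synthesis and oxidation themselves did not separate. FASN differed by 0.058 (95% interval -0.90 to 1.02), ACACA by 0.36 (-0.79 to 1.51), SCD by 0.57 (-0.94 to 2.07) and CPT1A by 0.042 (-0.92 to 1.01). In the fatty acid synthesis list 2 of 29 tested members were higher and 1 lower at an unadjusted p under 0.05, near the 4.2% and 4.13% of all genes, and the median was 0.058.

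Heat shock proteins and their helpers formed another group with lower values. Of 34 tested members of the list, 0 were called, 9 were lower and 1 was higher at an unadjusted p under 0.05, against 4.13% and 4.2% of all genes. In 3 of the 34, DNAJA4, HSPA4L and CHORDC1, all deficient libraries lay below all controls, against 0.923% of all genes, and the list median was -0.18. DNAJA4 (ENSGALG00000003251, galGal4 chromosome 10, 3237428 to 3243990), a co-chaperone of HSP70, was at 70.6, 75.1, 46.9, 187 and 103 scaled FPKM in controls 1 to 5 and 19.7, 28.6, 15.3, 18.2 and 16 in deficient libraries 1 to 5. The lowest control was control 3 and the highest was control 4, and all controls lay above the deficient libraries. On the log2 scale it differed by -2.12 (95% interval -2.83 to -1.41, limma adjusted p = 0.142). Without control 3 it was called (adjusted p = 0.0382), and over removals of each library in turn its limma adjusted p reached 0.416. HSPA4L, a nucleotide exchange factor of HSP70, was at 26.2, 30.04, 25, 38.1 and 37.6 in controls 1 to 5 and 16.5, 22, 13.5, 16.7 and 12.7 in deficient libraries 1 to 5. Deficient 2 lay closest to the controls. Its mean log2 difference was -0.91 (95% interval -1.28 to -0.53, limma adjusted p = 0.235).

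The inducible chaperone HSP70 itself was at 355, 349, 107, 866 and 332 scaled FPKM in controls 1 to 5 and 113, 109.7, 81.3, 92.3 and 76.5 in deficient libraries 1 to 5. Control 3 lay just under the highest deficient values, and control 4 was the highest of all. HSP90AA1, the inducible cytosolic HSP90, was at 737, 641, 417, 1148 and 841 in controls 1 to 5 and 264, 594, 118, 206 and 99.7 in deficient libraries 1 to 5. Deficient 2 crossed control 3, and the other 4 deficient libraries lay below every control. HSP70 differed by -1.80 (95% interval -2.76 to -0.85) and HSP90AA1 by -1.79 (95% interval -2.79 to -0.78), with limma adjusted p = 0.293 and 0.301. HSP70 was called without control 3 (adjusted p = 0.0382), and over removals of each library in turn its limma adjusted p reached 0.663. HSPA8, the constitutive HSP70 family member, differed by -1.32, the co-chaperone BAG3 by -1.92 and the HSP90 co-chaperone CHORDC1 by -0.89. In HSPA8 deficient 2 lay at 372 scaled FPKM and the other deficient libraries at 131 to 177. Reads shared among members of the HSP70 and HSP90 families could have been split between them. The chaperone of the endoplasmic reticulum HSPA5 (0.24, 95% interval -1.01 to 1.48) and that of the mitochondrion HSPD1 (-0.18, -0.57 to 0.20) did not separate the diets.

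Genes that respond to a shortage of amino acids lay on both sides. Of 30 tested members of the list, 2 were higher and 6 lower at an unadjusted p under 0.05, against 4.2% and 4.13% of all genes. The list median was 0.016, and values of the 2 higher members are not given with this list. ATF4, the transcription factor at its centre, was at 194, 185, 171, 194 and 208 scaled FPKM in controls 1 to 5 and 193, 178, 217, 196 and 206 in deficient libraries 1 to 5. The groups overlapped fully, and the log2 difference was 0.058 (95% interval -0.16 to 0.28). ASNS, asparagine synthetase, was at 21.1, 11.8, 12.9, 20.8 and 16.4 in controls 1 to 5 and 12.2, 22.8, 16.3, 12.8 and 28.9 in deficient libraries 1 to 5. Its highest library was deficient 5 and its lowest control 2, and the log2 difference was 0.12 (95% interval -0.43 to 0.67). The serine synthesis genes PHGDH (0.099, -0.27 to 0.47) and PSAT1 (0.0017, -0.51 to 0.51) and the sestrin SESN2 (0.13, -0.35 to 0.61) also lay near 0.

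The members of that list with the smallest p were lower. SLC38A2 (ENSGALG00000008497, galGal4 chromosome 1, 30927998 to 30943097), the neutral amino acid transporter SNAT2, was at 107, 190.4, 58.9, 241 and 115 scaled FPKM in controls 1 to 5 and 19.1, 41, 26, 41.5 and 52.4 in deficient libraries 1 to 5. The groups did not overlap, with control 3 closest to the deficient libraries. The log2 difference was -1.88 (95% interval -2.72 to -1.03, limma adjusted p = 0.25). CHAC1, which degrades glutathione, was at 37.4, 134, 8.3, 43.8 and 16.5 in controls 1 to 5 and 5.46, 3.47, 3.5, 5.55 and 15.2 in deficient libraries 1 to 5. Control 3 lay below deficient 5, and control 2 was far above all others. It differed by -2.28 (95% interval -3.70 to -0.87, limma adjusted p = 0.353). JDP2, a repressor of the AP-1 family, differed by -0.82, the secreted glycoprotein STC2 by -1.24, the pseudokinase TRIB1 by -0.46 and the sestrin SESN1 by -0.61. For these genes the limma adjusted p lay between 0.353 and 0.504.

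**Figure D3:**
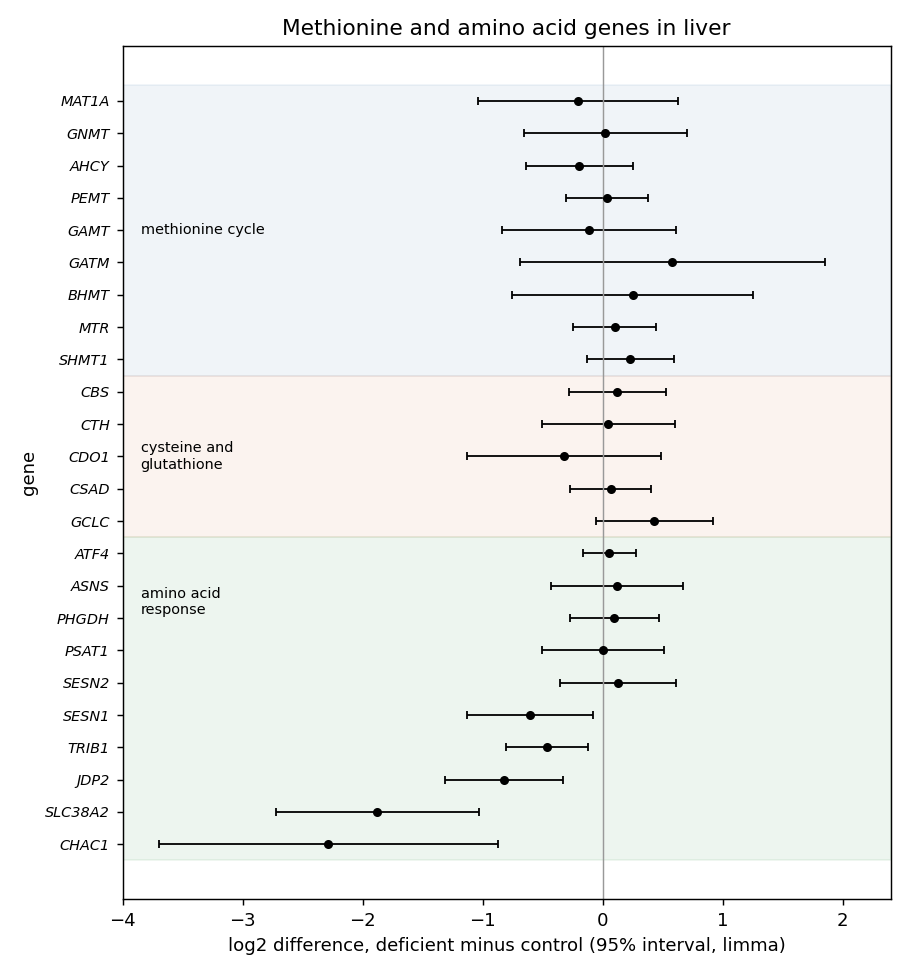
Log2 difference in liver, deficient minus control, with its 95% interval from limma, for 24 genes of the methionine cycle, of cysteine and glutathione synthesis and of the amino acid response. Intervals of the upper 2 groups all include 0, while those of SESN1, TRIB1, JDP2, SLC38A2 and CHAC1 lie below it before adjustment for the number of genes. Not drawn are TAT (95% interval -1.25 to -0.024) and GOT1 (0.035 to 0.57) of the upper lists, and the 2 higher members of the amino acid response list.

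The enzymes that handle methionine itself overlapped between the diets. In the methionine cycle list 1 of 25 tested members was lower at an unadjusted p under 0.05 (TAT, which takes part in the salvage of methionine) and 0 were higher, with a median of 0.035. MAT1A, which makes S-adenosylmethionine in the liver, was at 691, 609.6, 496, 614 and 854 scaled FPKM in controls 1 to 5 and 677, 1185, 442, 699 and 218 in deficient libraries 1 to 5. Deficient 2 was the highest and deficient 5 the lowest of all 10 libraries. On the log2 scale it differed by -0.20 (95% interval -1.04 to 0.63, limma adjusted p = 0.932). GNMT, which consumes surplus S-adenosylmethionine, was at 188, 179, 226, 142 and 81.3 in controls 1 to 5 and 269, 193, 126, 119.8 and 120.0 in deficient libraries 1 to 5. The groups overlapped, and the log2 difference was 0.021 (95% interval -0.66 to 0.70). BHMT, which methylates homocysteine with betaine, was at 169, 177, 231, 139 and 88.1 in controls 1 to 5 and 273, 441, 141, 186 and 64.3 in deficient libraries 1 to 5. It too overlapped, at 0.25 (95% interval -0.75 to 1.26).

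None of the remaining steps passed the test either. The methionine synthase MTR differed by 0.10 (95% interval -0.24 to 0.44), the S-adenosylhomocysteine hydrolase AHCY by -0.19 (-0.63 to 0.25), and the folate enzyme SHMT1 by 0.23 (-0.13 to 0.59). PEMT and GAMT, which methylate phosphatidylethanolamine and guanidinoacetate, differed by 0.035 (-0.31 to 0.38) and -0.11 (-0.84 to 0.61). GATM, which makes guanidinoacetate, had the widest interval of these genes, -0.69 to 1.85 around 0.58. In the transsulfuration list 1 of 12 tested members, the aspartate aminotransferase GOT1 (0.30), was higher at an unadjusted p under 0.05. CBS and CTH, which make cysteine from homocysteine, differed by 0.12 (-0.28 to 0.53) and 0.048 (-0.51 to 0.60). Cysteine dioxygenase, CDO1, was at 901, 531, 465, 529 and 680.0 scaled FPKM in controls 1 to 5 and 750.1, 932, 349, 488 and 219 in deficient libraries 1 to 5. Deficient 2 and control 1 were the highest and deficient 5 the lowest, and the log2 difference was -0.32 (-1.13 to 0.49). CSAD of taurine synthesis and GCLC of glutathione synthesis differed by 0.069 (-0.27 to 0.41) and 0.43 (-0.052 to 0.92). Among 42 tested methyltransferases that use S-adenosylmethionine, 3 were higher and 0 lower at an unadjusted p under 0.05, a share near the 4.2% of all genes. METTL14 of RNA adenosine methylation was among the 3 (0.39).

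Genes of growth signalling were mixed. IGF-I, the growth factor that the liver releases under growth hormone, was at 35, 19.6, 39.8, 33.5 and 13.7 scaled FPKM in controls 1 to 5 and 43.4, 24.9, 30.1, 18.4 and 15.8 in deficient libraries 1 to 5. The groups overlapped, and the log2 difference was -0.078 (95% interval -0.81 to 0.65). The growth hormone receptor GHR was at 176, 175, 168, 165 and 125 in controls 1 to 5 and 126, 137, 139.7, 142 and 75.2 in deficient libraries 1 to 5. Deficient 5 and control 5 were the lowest of their groups, and the log2 difference was -0.41 (95% interval -0.82 to 0.0047, limma adjusted p = 0.605). IGFBP2 differed by 0.032 (-1.02 to 1.08). Of 26 tested genes of mTOR and nutrient signalling, 6 were higher and 4 lower at an unadjusted p under 0.05, against 4.2% and 4.13% of all genes. TFEB, the transcription factor of lysosome genes, was at 3, 3.1, 3.14, 2.5 and 3.74 in controls 1 to 5 and 4.82, 3.82, 4.23, 3.77 and 4.26 in deficient libraries 1 to 5. Its groups did not overlap although they differed by 0.34. EEF2K, the kinase that slows translation elongation, differed by -0.56.

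Acute phase genes differed widely within each diet. Of 18 tested members 0 had an unadjusted p under 0.05, with a median of -0.26. FGB, a fibrinogen chain, was at 6570.3, 2602, 2478, 2964 and 6949 scaled FPKM in controls 1 to 5 and 3472, 8079.8, 2089.8, 3768 and 1424 in deficient libraries 1 to 5. Control 1, control 5 and deficient 2 stood above the other 7 libraries, and the same 3 libraries were the highest for FGA, FGG, the haem-binding HPX and the copper carrier CP. FGB differed by -0.29 (95% interval -1.34 to 0.75) and HPX by -0.80 (-2.06 to 0.47). NFKBIA, the inhibitor of NF-kB, was at 35.2, 54, 20.9, 48.2 and 13.7 in controls 1 to 5 and 10.5, 7.81, 6.63, 11.7 and 19.8 in deficient libraries 1 to 5. Deficient 5 crossed control 5, and the log2 difference was -1.46 (95% interval -2.30 to -0.61, limma adjusted p = 0.334). C8G of the complement membrane attack complex was lower in every deficient library than in any control, at -0.43 (limma adjusted p = 0.432). The gap was narrow, with deficient 2 at 201.4 scaled FPKM and controls 4 and 5 at 201.9.

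Marker sums of other liver cells overlapped between the diets. Of 14 tested Kupffer cell and macrophage markers 1, MERTK, was higher and 0 were lower at an unadjusted p under 0.05. The sum of the 14 was 1988 to 2437 FPKM, without scaling, in controls and 2082 to 2857 in deficient libraries. Endothelial markers summed to 177 to 225 and 172 to 231, and stellate cell and fibroblast markers to 357 to 470.1 and 337 to 510.3. Heterophil markers had a median log2 difference of -0.52 with 0 of 14 at an unadjusted p under 0.05, and their sum ran from 191 to 1836 in controls and from 168 to 833 in deficient libraries, highest in control 1. T and NK cell markers summed to 108 to 140.4 and 92.1 to 218. Myocyte markers had a median of -1.18, and of -0.065 without control 1. The part of these markers in the values above was not tested.

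**Figure D4:**
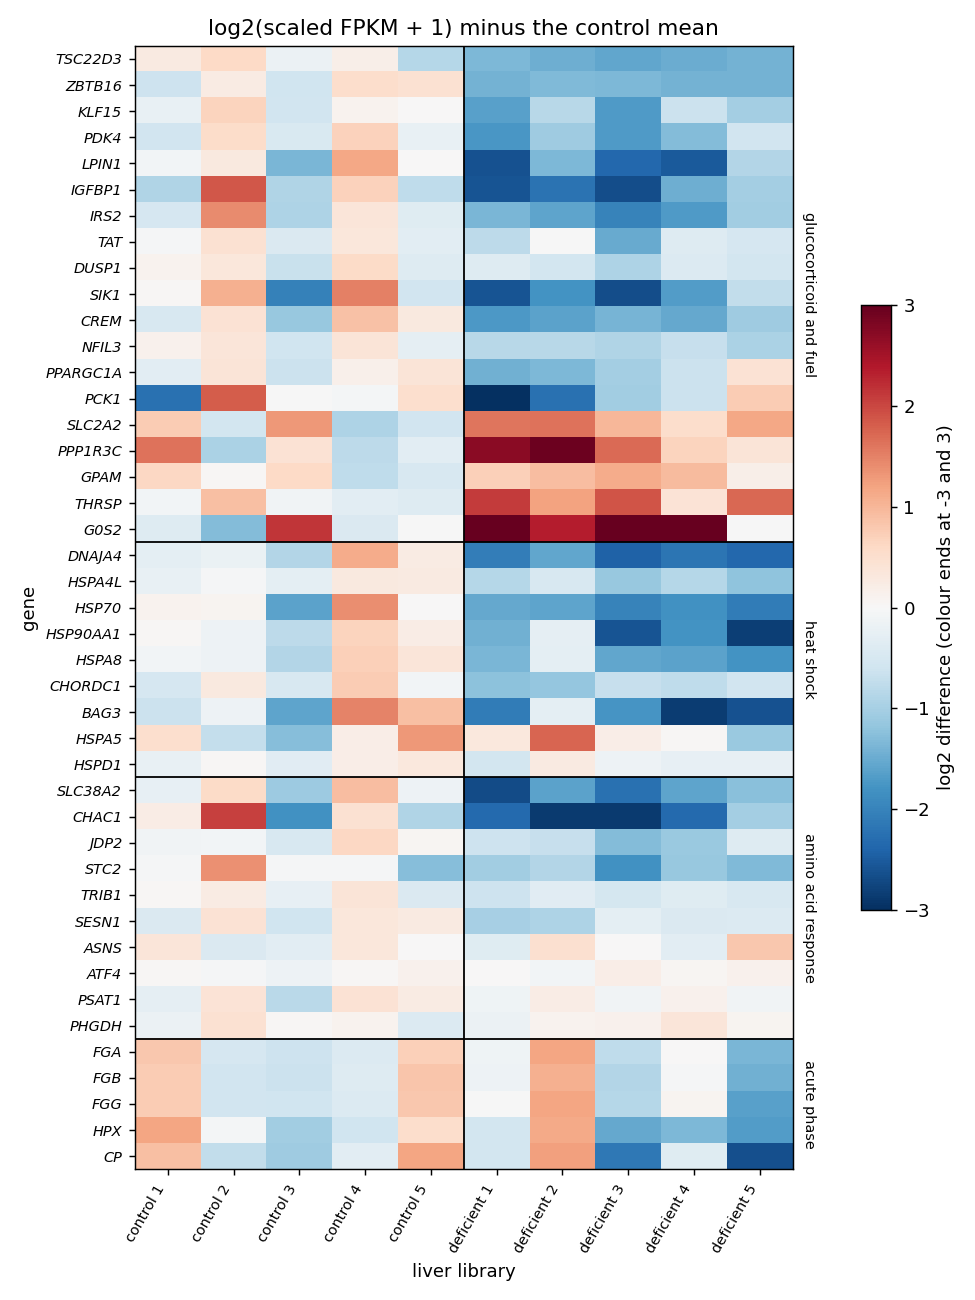
Log2(scaled FPKM + 1) minus the control mean for 43 genes (rows) in the 10 liver libraries (columns), with a line between the diets, red above and blue below the control mean and a colour scale that ends at -3 and 3. Control 3 is blue beside the other controls for many heat shock and fuel genes, and the acute phase genes are red in control 1, control 5 and deficient 2.

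The lists of hepatocyte markers and of bile acid genes held few genes with a small p. Of 23 tested hepatocyte markers 1 was higher and 1 lower at an unadjusted p under 0.05, and of 20 tested genes of bile acid synthesis 2 were higher and 0 lower, against 4.2% and 4.13% of all genes. Of 31 tested nuclear receptors and liver transcription factors, 2 were higher and 5 lower at that level, with a list median of -0.11. In 2 of the 31, PROX1 and KLF15, all deficient libraries lay below all controls, against 0.923% of all genes. Some lists share members, so that 1 gene can be counted in more than 1 list. KLF15 was also counted in the glucocorticoid response list, and TAT in both the methionine cycle list and the hepatocyte marker list. PROX1, a transcription factor of hepatocyte identity, was at 15.7, 17.7, 12.4, 18.5 and 15.2 scaled FPKM in controls 1 to 5 and 5.97, 11.5, 6.98, 10.5 and 7.88 in deficient libraries 1 to 5. All deficient libraries lay below all controls, and the log2 difference was -0.85 (95% interval -1.23 to -0.47, limma adjusted p = 0.25). CYP7A1, the rate-limiting enzyme of bile acid synthesis, differed by 0.78, and HSD3B7 of the same pathway by 0.93. For HSD3B7, deficient 5 lay at 5.87 scaled FPKM, within the controls, and the other deficient libraries lay between 16.2 and 23. MTTP, which loads lipid onto apolipoprotein B, differed by -0.33, the hepatic lipase LIPC by 0.72 and HERPUD1 of the endoplasmic reticulum stress response by -0.87. The adjusted p of these 5 genes lay between 0.432 and 0.58 in limma.

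Whether the diet acted differently in liver and in breast muscle was tested directly, as the liver difference minus the breast difference. Limma called 843 of 9142 genes (9.22%), 479 with a positive difference (5.24%) and 364 with a negative one (3.98%). In 633 of the 843 the effects had opposite signs, the liver effect was the larger in 87, and 152 also had an unadjusted p under 0.05 in liver. These counts come from genes selected for a large difference, which itself favours opposite signs, and shares over all genes are not given. No gene was called in liver alone, so an opposite sign there is not a passed test. The count depended on single breast libraries, with 456 calls without breast control 2, 518 without breast deficient 4, 552 without breast deficient 3 and 557 without breast control 4. Both tissues may come from the same birds, but the libraries were fitted as separate. With a replicate block within each diet, 787 genes were called. Without scaling, 1871 genes were called and 96.2% of them were positive, when the median difference of all genes was 0.298.

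Several of the liver genes above differed between the tissues. LPIN1 was at -1.94 in liver and 0.64 in breast, a difference of -2.58 ± 0.53 (SE, limma adjusted p = 0.00691). PDK4 was at -1.28 in liver and 0.91 in breast (difference -2.19 ± 0.48, SE, limma adjusted p = 0.00995), and SESN1 at -0.61 and 1.37 (difference -1.98 ± 0.37, SE, limma adjusted p = 0.00407). In all 3 the values had opposite signs. TSC22D3, MIB2 and CREM lay near 0 in breast (0.060, 0.16 and 0.088), with differences of -1.52, -1.03 and -1.56 and limma adjusted p of 0.00294, 0.00158 and 0.017. DNAJA4 was at -0.11 in breast, with a difference of -2.01 ± 0.45 (SE, limma adjusted p = 0.0112). These 7 calls held under each alternative run, while G0S2 (difference 3.46, adjusted p = 0.0266) lost its call without liver control 2 or without breast control 2.

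Genes of ubiquitin and follistatin and some macrophage genes differed too. UBB, a polyubiquitin gene whose reads may be shared with other ubiquitin genes, was at 3520.3, 2789.8, 2636, 3104 and 1265 scaled FPKM in controls 1 to 5 and 1709, 897, 1067, 1048 and 1228 in deficient libraries 1 to 5. Control 5 lay among the deficient libraries, and the other controls lay above them. UBB was at -1.12 in liver and 0.95 in breast (difference -2.07 ± 0.35, SE, limma adjusted p = 0.00204). FST, which encodes the activin and myostatin antagonist follistatin, was at 18.2, 53.7, 10.4, 73.6 and 21.3 in controls 1 to 5 and 3.35, 5.7, 3.19, 8.67 and 11.6 in deficient libraries 1 to 5 in liver. Control 3 crossed deficient 5, and controls 2 and 4 were the highest. FST was at -2.08 in liver and 0.51 in breast, with limma adjusted p = 0.0132 for the difference. The macrophage genes CD74, CSF1R and MERTK, at 0.22, 0.33 and 0.26 in liver, were at -0.77, -0.82 and -0.60 in breast (limma adjusted p = 0.00875, 0.00326 and 0.0089 for the differences). These macrophage genes were picked from 14 tested markers, whose median in liver was 0.082. The tissue difference of the whole marker list is not given here. The cytokine brake SOCS3 was at 12.1, 4.09, 3.41, 12.8 and 10.6 in controls 1 to 5 and 15.4, 25.8, 29, 19.7 and 2.93 in deficient libraries 1 to 5 in liver. Deficient 5 was its lowest library and the other 4 deficient libraries its highest, and the difference from breast was 2.91 ± 0.69 (SE, limma adjusted p = 0.0138).

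**Figure D5:**
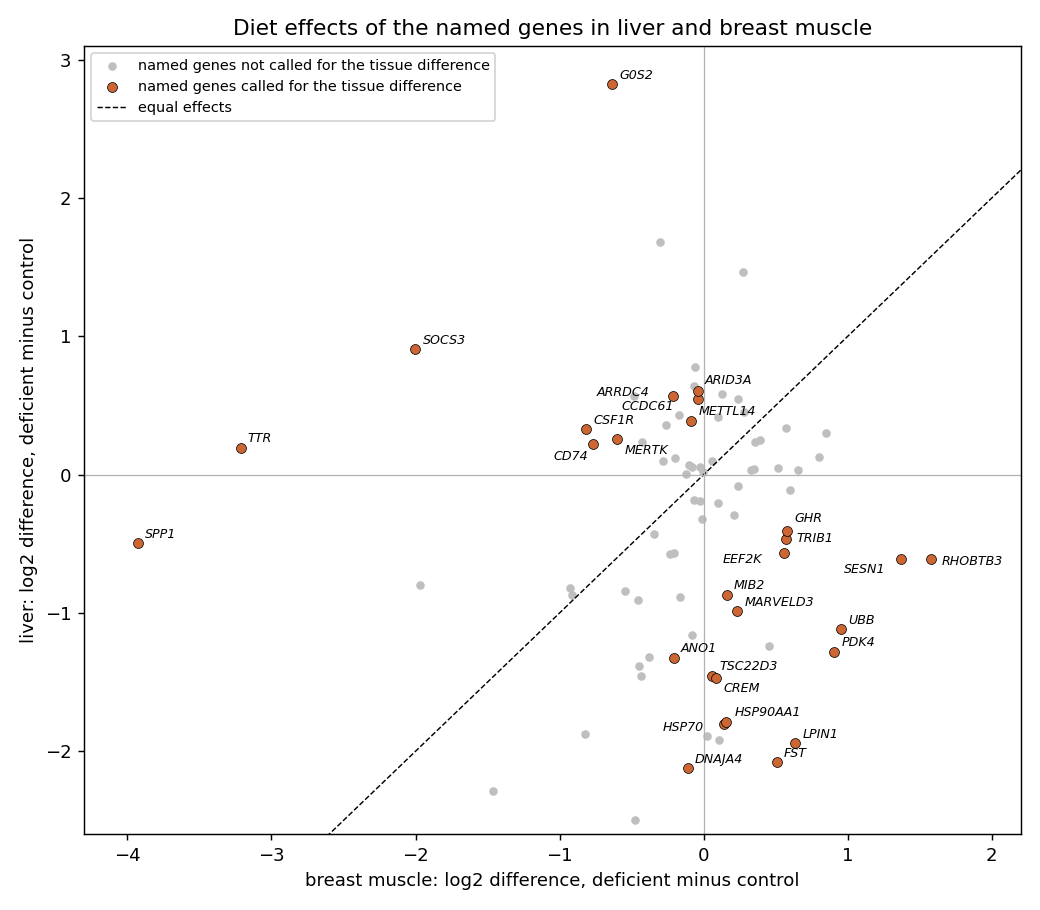
Log2 diet difference, deficient minus control, in breast muscle (x axis) and liver (y axis) for the named genes tested in both tissues, without the 2 small nucleolar RNA genes, in orange where called for the liver minus breast difference and grey where not, with a dashed line at equal effects. LPIN1, PDK4, SESN1 and UBB lie at the lower right, below 0 in liver and above 0 in breast.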

How the data were processed

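RNA from 10 livers was sequenced as Illumina TruSeq libraries, per the labels' protocols. Per the submitters' processing notes, Cufflinks 2.1.1 and Cuffdiff 2.1.1, with TopHat2 2.0.9 and Bowtie 1.0.0, were used on galGal4, without their roles. The authors deposited FPKM per gene and, per the file headers, FPKM, coverage (mean read depth, a signal) and length per transcript. The 17108 genes carry 14128 names. No file gives read counts, so depth is known only relatively, from coverage. Starts are counted from 0 in the files and are given here plus 1. A single gene with a failed or overflowing estimate, ALB, was left out.

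A scaling factor per library was taken as the median, over genes detected in all 10 libraries, of its FPKM divided by the gene's geometric mean. Genes with a mean of at least 1 were tested on log2(scaled FPKM + 1) in limma 3.58.1 (R 4.3.3) with a mean-variance trend, two-sided, with Benjamini-Hochberg adjustment over all genes tested and a threshold of 0.05. Differences on this scale understate those of low genes. A fit over all 20 libraries tested liver minus breast for genes with a mean of at least 1 in each tissue. The procedure was tested on simulated data first.

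The members, the 52 gene lists, the named genes and the alternatives were chosen with earlier results of these data known, TSC22D3, ZBTB16, PDK4, LPIN1, G0S2 and MIB2 among them, so no list is independent support. The text names the 10 genes per direction with the smallest p, a panel of methionine and metabolic genes, the 3 members of each list with the smallest p, and the 5 largest and smallest tissue differences. HSP90AA1, HSPA8, CHORDC1, BAG3, HSPA5, HSPD1, CREM, PPARGC1A, STC2, TRIB1, SESN1, FGA, FGB, FGG, CP, CD74, EREG and HMGA2 were named after their values were seen. A few items that these rules name are not reported here. The alternatives changed scaling, pseudocount (0.1), filters, variance model, library weights, replicate block, short models, thresholds and each library in turn. MAT2A, SHMT2, NNMT, DDIT3, TRIB3, FGF21, SREBF1, PPARA, G6PC and SLC7A11 were not analysed here. Sequences were not used here.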

Additional observations from a re-analysis of the deposited data

Results flagged for a closer look

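In liver, 206 sets of 5 libraries, 1 per named gene and diet, were examined for a library far from the other 4, and 13 (6.31%) had one, where chance gives about 1 in 20. In controls these were control 2 for SNORA40 (16.2 scaled FPKM), THRSP (28.2) and PEMT (129), control 1 for CPT1A (45.8) and control 5 for GAMT (49.1), GHR (125) and UBB (1265). In deficient libraries they were deficient 3 for SNORA25 (listed at 0) and GTPBP2 (6.38), deficient 4 for ARID3A (8.07), deficient 2 for HSPA8 (372) and deficient 5 for GHR (75.2) and HSD3B7 (5.87). The mitochondrial share of the FPKM sum stood apart in control 4 (63.1%) and deficient 1 (36.1%), and each of these shares held a single short model with 54.6% and 20.9% of the sum.

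Of 85 named genes in the test of the liver diet effect minus the breast diet effect, 30 were called by limma, against 9.22% of all genes tested. The named genes include the 5 largest and the 5 smallest called differences and others chosen with values known, so the 2 shares are not comparable. The negative log2 differences were -1.03 for MIB2, -2.01 for DNAJA4, -1.52 for TSC22D3, -1.22 for MARVELD3, -1.12 for ANO1, -2.19 for PDK4, -2.58 for LPIN1 and -1.56 for CREM. They were -1.94 for HSP70, -1.94 for HSP90AA1, -1.04 for TRIB1, -1.98 for SESN1, -0.99 for GHR, -1.12 for EEF2K, -2.59 for FST, -2.07 for UBB and -2.19 for RHOBTB3. The positive differences were 0.59 for CCDC61, 0.64 for ARID3A, 0.78 for ARRDC4, 0.48 for METTL14 and 3.46 for G0S2. They were 3.43 for SPP1, 3.41 for TTR, 2.91 for SOCS3, 0.99 for CD74, 0.86 for MERTK and 1.15 for CSF1R. A positive difference need not be a rise in liver. SPP1 was at -0.50 in liver and -3.93 in breast, and TTR at 0.19 and -3.21. SNORA40 and SNORA25 had fitted differences of 5.55 and 4.09, which depend on the pseudocount because most liver controls are listed at 0. In 20 of the 30 the call held under each alternative run. The calls of ANO1, CCDC61, ARID3A, G0S2, HSP70, HSP90AA1, METTL14, GHR, SNORA40 and SNORA25 were lost under at least 1, with an adjusted p of at most 0.0959.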

How the results depend on the processing

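The count of genes called in liver was 0 and became 1 with a filter at a mean of 5 FPKM, 2 with no filter, 1 at an adjusted p under 0.1, 849 at an unadjusted p under 0.05, and 0 to 11 with each library left out in turn. SNORA40 was called without control 2 and SNORA25 without deficient 3, where 1 group is then listed at 0 throughout. List members called ranged from 0 to 4 with a library left out. The 190 genes with no overlap became 105 with the filter at 5 FPKM, where fewer genes were tested, 354 without control 4 and deficient 1, and 224 to 393 with each library left out, where fewer values have to separate. Liver minus breast gave 843 calls, 1871 without scaling, 555 with the filter at 5 FPKM and 456 to 1133 with each library left out. The share of positive calls was 56.8%, and 96.2% without scaling, 71.1% with upper quartile scaling, 60.9% with quantile normalization and 45.9% with the filter. Of 2455 values for 103 named genes under alternatives, 2407 kept their direction and 48 did not. No list median for thrombocyte markers could be given with the filter at 5 FPKM.

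With each library left out, the log2 difference crossed 0 in ASNS (-0.050 to 0.24), BHMT (-0.065 to 0.62), CBS (-0.019 to 0.23), CPT1A (-0.32 to 0.25), CSAD (-0.032 to 0.18), CTH (-0.15 to 0.19), FASN (-0.21 to 0.29), FGA (-0.55 to 0.085), FGG (-0.61 to 0.090), GNMT (-0.21 to 0.16), HSPA5 (-0.14 to 0.57), IGF-I (-0.30 to 0.078), IGFBP2 (-0.27 to 0.37), MAT1A (-0.47 to 0.13), MTR (-0.048 to 0.19), PEMT (-0.022 to 0.15), PHGDH (-0.0045 to 0.21), PSAT1 (-0.20 to 0.11) and SESN2 (-0.029 to 0.32). ASNS, FASN and GNMT were at -0.013, -0.13 and -0.10 with library weights, and FASN and GNMT at -0.018 and -0.20 without control 4 and deficient 1. The cause was not tested.

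Libraries of the same number were not shown to be paired, since control and deficient livers with the same number had correlated deviations of -0.20 to 0.057. With the replicate block limma called 0 genes, 868 had an unadjusted p under 0.05, 672 of them shared with the 849, and liver minus breast gave 845 calls. The labels give 5 birds per diet, and each tissue has 5 libraries per diet, so both tissues may come from the same birds. The labels do not say which libraries share a bird, and all were treated as separate. Deviations of liver and breast libraries of the same diet and number correlated at 0.0095 to 0.21, all above 0. Correlations between libraries of different numbers are not given, and whether the same number means the same bird was not tested. With a replicate block within each diet, chosen after seeing the data, liver minus breast gave 787 calls, 642 of them shared with the 843, and of the 30 named calls those of CCDC61 and METTL14 were lost. The files give no counts, so the depth of each value is unknown.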

Other observations

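Among genes with an unadjusted p under 0.05, control 3 was the control nearest to the deficient libraries more often than the other controls. These genes were selected by their p in the same libraries, and shares over all genes tested are not given. Control 3 also had the highest coverage per unit of FPKM, 3.47 against 1.98 to 2.6 in the other liver libraries. A link of coverage to these counts was not tested. Among the 421 genes that were lower at an unadjusted p under 0.05, control 3 was the lowest control in 157, control 5 in 99, control 1 in 73, control 2 in 54 and control 4 in 38. Among the 428 higher genes control 3 was the highest control in 155 and control 4 in 16. In the lower genes deficient 2, 5 and 4 were the highest deficient library in 118, 116 and 97, and deficient 1 and 3 in 54 and 36.

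Of all genes tested, 8.34% had an unadjusted p under 0.05, so that a small list may hold 0 by its size alone. Members of a list may also vary together, and no set test was run, so 0 in a longer list is a description only. Lists with 0 members at that level included 55 cytosolic ribosomal proteins (median log2 difference 0.017), 35 proteasome subunits (0.062) and 19 aminoacyl-tRNA synthetases (0.073). They also included 19 genes of polyamine and creatine synthesis (-0.0069) and 26 of iron, copper and haem (0.016). Of 45 genes of amino acid breakdown 4 were higher and 1 lower, and of 54 nuclear genes of oxidative phosphorylation 1 was higher. Erythroid markers summed to 241 to 1582 FPKM, without scaling, over the deficient libraries and to 536 to 954 over the controls. Of 8 tested erythroid markers 0 had an unadjusted p under 0.05.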
